A study of Mus musculus with 4 samples.

Results

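The genes examined were 10 well-known markers of endoplasmic reticulum (ER) stress, Hspa5, Hsp90b1, Calr, Sdf2l1, Dnajb9, Pdia4, Pdia6, Xbp1, Atf4 and Ddit3, chosen by symbol from the 27998 genes of the count tables, and all 10 were found. They were read in alveolar type 2 (AT2) cells, which secrete surfactant and can renew the alveolar epithelium. Only cells with at least 500 genes, at most 20% mitochondrial counts and at least 5% of their counts from Sftpc (surfactant protein C) were used, which kept 9627 of 10911 barcodes. All mice were of the genotype Sftpc-creER;Rosa26-mTmG, in which tamoxifen, given before instillation to every group, switches cells with an active Sftpc promoter and their descendants to membrane GFP. GFP-positive cells without CD45 (leukocytes) or CD31 (endothelium) were sorted, pooled from 3 mice per group and sequenced as 1 library each with the 10x Genomics 3' kit. The 4 groups were 12-month-old mice 30 days after 0.8 U/kg bleomycin into the trachea, 12-month-old mice given PBS (labelled day 0), 3-month-old mice 30 days after the same bleomycin dose, and 3-month-old mice given PBS (day 0). Treatment and day of harvest therefore cannot be told apart.

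When proteins misfold in the ER, the chaperone BiP is drawn away from a set of membrane sensors, and the unfolded protein response begins. The sensor IRE1 removes a short intron from Xbp1 mRNA, PERK slows translation and favours that of Atf4, and ATF6 is cut to release a transcription factor. Together these raise chaperones, oxidoreductases and degradation factors, and prolonged stress induces Ddit3 (CHOP), which is linked to cell death. AT2 cells make and process large amounts of surfactant protein precursor, and misfolding variants of surfactant protein C are a known cause of ER stress in them. Counts per gene read the amount of mRNA only: neither the splicing of Xbp1, the translation of Atf4 nor the cleavage of ATF6 was measured here.

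The ER stress element (ERSE), which is CCAAT and CCACG with any 9 bases between them, is the promoter motif through which ATF6 and XBP1 raise many chaperone genes. Upstream windows from 220 to 1 bases before the RefSeq transcript start (GRCm38.p6) are shown for the 4 genes that hold a full ERSE and for Sdf2l1 and Dnajb9, which had the highest and the lowest 12-month bleomycin ratio among the genes without one. Each is read 5' to 3' on the gene's own strand, with full ERSE matches on either strand in capitals. Calr lies on the minus strand at chr8:84846932-84847151, Hspa5 on the plus strand at chr2:34771870-34772089, Pdia6 on the plus strand at chr12:17266369-17266588 and Hsp90b1 on the minus strand at chr10:86705445-86705664. Sdf2l1 is on the minus strand at chr16:17132384-17132603 and Dnajb9 on the minus strand at chr12:44210069-44210288.
Calr: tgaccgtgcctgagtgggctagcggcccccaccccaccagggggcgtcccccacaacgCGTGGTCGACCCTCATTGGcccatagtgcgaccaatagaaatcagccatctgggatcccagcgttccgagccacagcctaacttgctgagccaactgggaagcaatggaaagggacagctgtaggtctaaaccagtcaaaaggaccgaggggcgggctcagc
Hspa5: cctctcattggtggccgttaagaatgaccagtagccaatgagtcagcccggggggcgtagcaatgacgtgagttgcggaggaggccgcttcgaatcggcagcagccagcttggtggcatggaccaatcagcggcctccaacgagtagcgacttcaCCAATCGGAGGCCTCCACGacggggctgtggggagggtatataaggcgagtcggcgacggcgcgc
Pdia6: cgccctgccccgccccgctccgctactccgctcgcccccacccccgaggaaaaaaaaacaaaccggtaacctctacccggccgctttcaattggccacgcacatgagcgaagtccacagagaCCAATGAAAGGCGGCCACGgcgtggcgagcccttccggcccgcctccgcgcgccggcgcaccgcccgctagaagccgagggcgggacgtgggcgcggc
Hsp90b1: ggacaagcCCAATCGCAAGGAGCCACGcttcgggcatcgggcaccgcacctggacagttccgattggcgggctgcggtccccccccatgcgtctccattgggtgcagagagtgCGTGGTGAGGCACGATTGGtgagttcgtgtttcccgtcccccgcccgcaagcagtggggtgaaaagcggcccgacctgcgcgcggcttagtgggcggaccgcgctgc
Sdf2l1: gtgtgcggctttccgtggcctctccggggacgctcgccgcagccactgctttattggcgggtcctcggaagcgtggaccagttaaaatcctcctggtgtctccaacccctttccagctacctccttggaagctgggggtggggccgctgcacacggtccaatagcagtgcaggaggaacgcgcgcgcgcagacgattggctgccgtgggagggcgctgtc
Dnajb9: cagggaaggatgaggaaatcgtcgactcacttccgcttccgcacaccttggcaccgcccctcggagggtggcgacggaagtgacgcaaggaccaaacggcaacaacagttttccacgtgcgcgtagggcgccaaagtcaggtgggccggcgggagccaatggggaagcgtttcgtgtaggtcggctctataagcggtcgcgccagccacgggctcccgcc

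The ERSE of Hspa5 stood 65 to 47 bases before the start and that of Pdia6 98 to 80 bases before it. Hsp90b1 held a pair, one 212 to 194 bases before the start and an inverted one 107 to 89 bases before it, and the ERSE of Calr was inverted, 162 to 144 bases before the start. Among 32851 RefSeq promoters, searched on both strands from 250 bases before to 50 after the start, 39 (0.119%) held the full motif, among them 4 of the 10 genes. The ends of the motif are common: CCAAT was in 37.4% of promoters and in 9 of the 10 genes, and CCACG in 32.8% and in 8. Each full ERSE also counts as a match to both ends. ERSE-II (ATTGG and CCACG with any 1 base between them, 0.0365% of promoters), the core TGACGTGG bound by XBP1 (0.676%), the C/EBP-ATF element TGATGNAAT (0.965%) and the cyclic AMP response element TGACGTCA (1.79%) were in none of the 10 within these windows. GENCODE M21 places the start of some of these genes, Hspa5 among them, at other bases than RefSeq, so positions hold for the RefSeq starts.

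The libraries differed in depth and makeup, which bears on every comparison. Cells used numbered 2450 after bleomycin and 2570 after PBS at 12 months, and 2299 after bleomycin and 2308 after PBS at 3 months, with median counts per cell of 12520, 5137.5, 8552 and 4563.5 in that order. Summed counts ran from 10896642 to 31849343 per library, so that the limit a count of 0 allows (3 counts) was 0.0942 to 0.275 CPM, the usual scaling of counts to a common library total. The median mitochondrial share was 2.19% and 5.08% at 12 months and 3.44% and 5.23% at 3 months, bleomycin before PBS. All 12 AT2 markers were detected in every library. Markers of a transitional alveolar state (Krt8 and 9 others, all detected in each library) summed to 1920, 683, 1407 and 896 CPM in the order of groups above. Ranked by level, this is the order of libraries found below for Hspa5, Sdf2l1, Calr, Pdia6, Pdia4 and Xbp1. The share of all counted genes with this order was not counted. Some steps of Calr, Pdia4 and Xbp1 lay within overlapping counting intervals. AT1 markers summed to 3452, 2528, 3616 and 3080 CPM and club cell markers to 5410.2, 7276, 4703 and 4914 CPM. The part of these in the results was not tested. Leukocyte markers were lower but uneven: in the same order, summed macrophage markers stood at 119, 27.3, 29.4 and 7.07 CPM (11, 9, 10 and 4 of 11 detected), neutrophil markers at 112, 16.3, 8.06 and 13.2 CPM (all 5 detected in each) and B or plasma cell markers at 146, 27.3, 42.8 and 26.8 CPM (6, 5, 5 and 4 of 7 listed, of which 6 are in the files). T or NK cell markers summed to 21.7, 4.51, 2.78 and 0.0918 CPM (8, 7, 8 and 1 of 8 detected). Leukocyte Ptprc was at 0 in the 3-month PBS library, and plasma cell Jchain was at 100.3, 0.226, 8.93 and 0 CPM. Between 7 and 20 cell barcodes were shared by any pair of libraries, at most 0.713% of the smaller. The Sftpc rule left out 543, 175, 325 and 86 cells that passed the other filters. Near its limit, 39, 32, 23 and 72 used cells held 5 to 6% Sftpc, and 26, 20, 16 and 26 left-out cells held 4 to 5%.

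With 1 library per group there is no replicate spread, so no test was made and no difference below has a replicate check. Levels are CPM with exact Poisson 95% intervals. Ratios are bleomycin over PBS, or 12 over 3 months, on the log2 scale with exact 95% intervals, and both kinds of interval cover counting error only. A gene was counted in a comparison if it reached 20 CPM in at least 1 of its libraries, and a difference of at least 1.5-fold is reported as higher or lower. A gene near that minimum can thus be counted only through the library where it is higher, among all genes as in the lists. Ddit3 stayed under 20 CPM in every library, so 9 of the 10 genes were counted.

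At 12 months 3 of the 5 ER chaperone genes and both disulfide isomerase genes were higher after bleomycin than after PBS. Of the 9 counted genes, 5 were at least 1.5-fold higher (Calr, Sdf2l1, Pdia4, Hspa5 and Pdia6), where 18.5% of all 4701 counted genes were, and 0 were lower, where 10.6% of all were. The median log2 ratio of the 9 was 0.77, beside 0.10 for all counted genes. Hsp90b1, Xbp1, Atf4 and Dnajb9 differed by less than 1.5-fold.

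At 3 months the log2 ratio was lower than at 12 months for each of the 10 genes. The median of the 12-month minus the 3-month log2 ratio over all counted genes was also above 0, at 0.09. The share of all genes going that way was not counted. Calr alone was at least 1.5-fold higher, 1 of 9 counted genes beside 8.99% of all 4796, and 0 were at least 1.5-fold lower beside 11.1% of all. The median log2 ratio was 0.20, against -0.01 for all counted genes. With library totals taken without the 20 most abundant genes, Pdia4 and Pdia6 also passed. This gave 3 of 10 counted genes, beside 12% of all 6199.

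**Figure D1:**
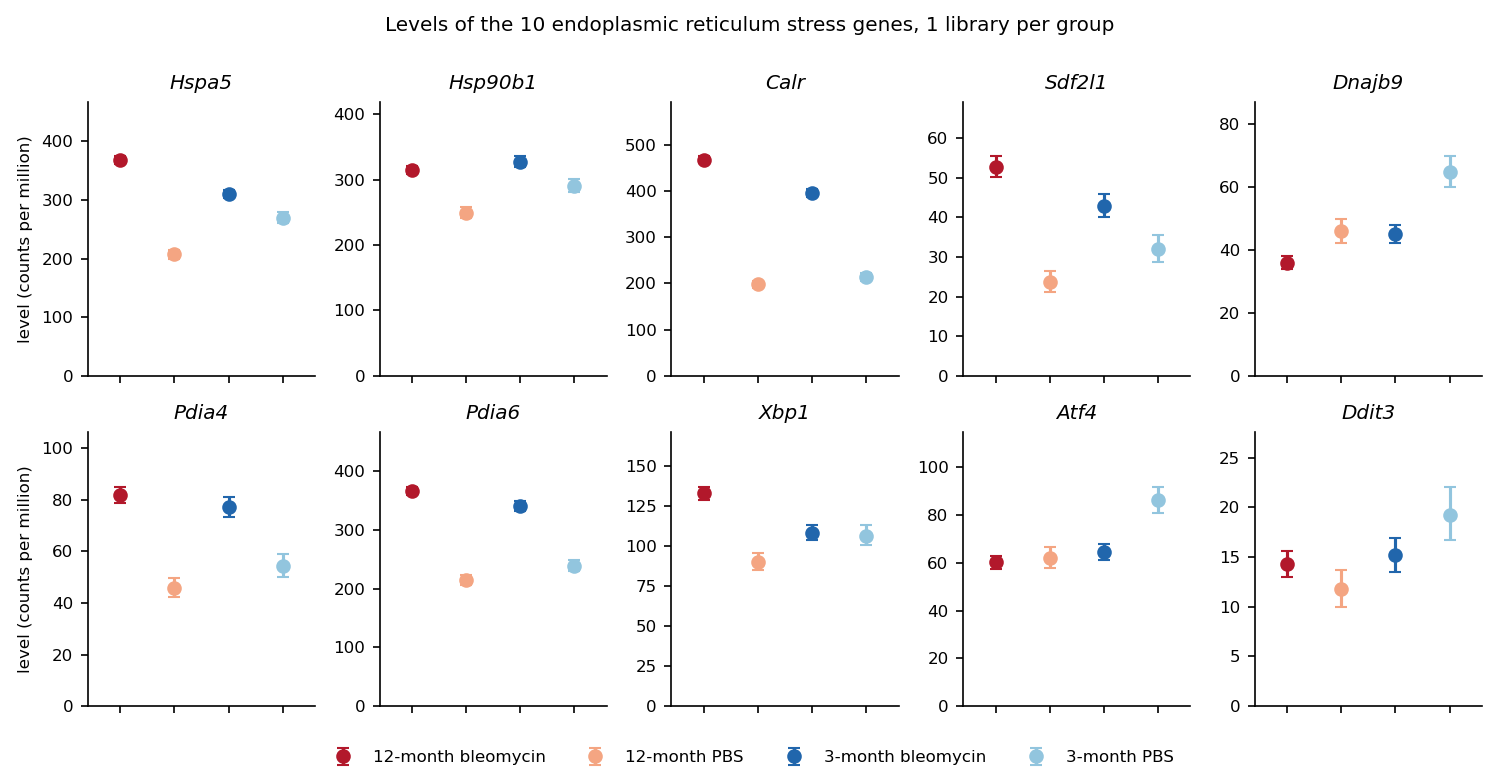
Level of each gene (vertical axis, CPM, starting at 0) in the 4 libraries, with bars for the exact Poisson 95% interval, which covers counting error only. In Calr, Pdia6, Pdia4, Hspa5, Sdf2l1 and Hsp90b1 both bleomycin libraries stand above both PBS libraries. They do so in Xbp1 too, but with overlapping intervals at 3 months. The 3-month PBS library is the highest for Dnajb9, Atf4 and Ddit3.

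Among the chaperones, Calr, a calcium-binding lectin chaperone of glycoproteins, had the highest bleomycin ratio at both ages. It had 467 CPM (459 to 474) after bleomycin and 198 CPM (191 to 206) after PBS at 12 months, and 396 CPM (388 to 405) after bleomycin and 214 CPM (205 to 223) after PBS at 3 months. Both bleomycin libraries thus lay well above both PBS libraries, with no overlap of intervals. Its log2 ratio was 1.23 (1.18 to 1.30) at 12 months, a 2.35-fold difference, and 0.89 (0.82 to 0.96) at 3 months, 1.85-fold. These ratios exceeded those of 95.8% and 96.7% of counted genes. At 12 months the Calr ratio lay within the counting interval of Sdf2l1 (0.98 to 1.33).

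Sdf2l1 encodes a subunit of the BiP chaperone complex and is a sensitive unfolded protein response target. Its levels were 52.8 CPM (50.3 to 55.4) after bleomycin and 23.7 CPM (21.2 to 26.5) after PBS at 12 months, and 42.9 CPM (40.1 to 45.8) and 32.1 CPM (28.8 to 35.7) at 3 months in the same order of treatments. The order of the libraries was 12-month bleomycin, 3-month bleomycin, 3-month PBS and 12-month PBS, each step larger than the counting intervals. The log2 ratio was 1.15 (0.98 to 1.33) at 12 months, 2.22-fold, and 0.42 (0.24 to 0.60) at 3 months.

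Hspa5, encoding BiP, followed the same order of libraries. Bleomycin and PBS libraries held 368 CPM (361 to 374) and 207 CPM (199.6 to 215) at 12 months, and 310.2 CPM (303 to 318) and 270.1 CPM (260.4 to 280.02) at 3 months. The log2 ratio was 0.83 (0.77 to 0.89) in the older mice, 1.77-fold, and 0.20 (0.14 to 0.26) in the younger, 1.15-fold.

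Hsp90b1 (GRP94), the Hsp90 of the ER, differed less. It had 314 CPM (308 to 320.3) after bleomycin against 249 CPM (241 to 258) after PBS at 12 months, and 327 CPM (319.6 to 335) against 291 CPM (281 to 301) at 3 months. The log2 ratios were 0.33 (0.28 to 0.39) and 0.17 (0.11 to 0.23), and the intervals of the bleomycin libraries meet. Dnajb9 (ERdj4) went the other way. It is a J-domain co-chaperone of BiP that also restrains IRE1. Its level was 35.8 CPM (33.8 to 38.0) after bleomycin and 45.9 CPM (42.3 to 49.7) after PBS at 12 months, and 45.0 CPM (42.1 to 48.0) and 64.7 CPM (60.0 to 69.7) at 3 months. The 3-month PBS library was the highest and the 12-month bleomycin library the lowest, with the other 2 alike within counting error. Log2 ratios of -0.36 (-0.50 to -0.21) and -0.52 (-0.67 to -0.38) were below 0 at both ages, though short of 1.5-fold.

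The disulfide isomerases, which form and shuffle disulfide bonds in folding proteins, gave similar ratios. Pdia6 had 367 CPM (360.2 to 374) after bleomycin and 215 CPM (207 to 223) after PBS at 12 months, and 340.5 CPM (333 to 349) and 239 CPM (230.2 to 249) at 3 months. For Pdia4 the levels were 81.9 CPM (78.7 to 85.1) after bleomycin and 45.8 CPM (42.3 to 49.6) after PBS in the older mice, and 77.0 CPM (73.3 to 80.9) and 54.4 CPM (50.1 to 59.0) in the younger. In both genes each bleomycin library lay above each PBS library without overlap of intervals. At 12 months the log2 ratios were 0.77 (0.71 to 0.83) for Pdia6 and 0.84 (0.71 to 0.97) for Pdia4, about the same size. At 3 months they were 0.51 (0.44 to 0.57) and 0.50 (0.36 to 0.64), under 1.5-fold.

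**Figure D2:**
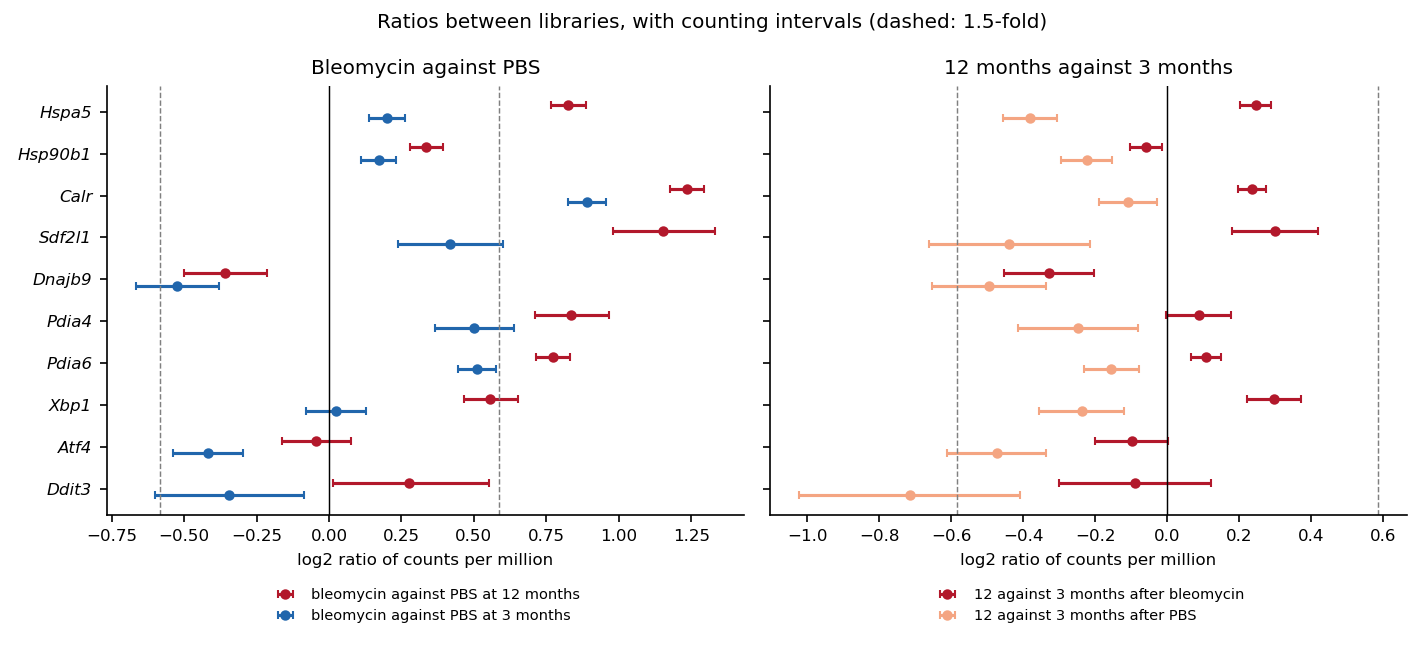
Log2 ratios of CPM (horizontal axis) for each gene, with bars for exact 95% counting intervals and dashed lines at 1.5-fold; the left panel shows bleomycin against PBS at each age and the right panel 12 against 3 months within each treatment. In the left panel the 12-month ratio lies to the right of the 3-month ratio for all 10 genes. The share of all counted genes for which it does was not counted. In the right panel all 10 ratios after PBS are below 0, as are those of 3176 of all 4526 counted genes.

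Of the transcription factors, none reached 1.5-fold at either age in the cells used. Xbp1, whose spliced product drives ER expansion in secretory cells, stood at 133 CPM (129 to 137) after bleomycin and 90.4 CPM (85.4 to 95.7) after PBS at 12 months, and at 108 CPM (104 to 113) and 107 CPM (101 to 113) at 3 months. Only the 12-month bleomycin library stood above the rest, and the 3-month pair overlapped. The log2 ratio was 0.56 (0.46 to 0.65) at 12 months, 1.47-fold and so just under the limit, and 0.02 (-0.08 to 0.13) at 3 months. Xbp1 is also high in plasma cells, whose Jchain was highest in the same library. In cells without a count of Jchain, Mzb1 or Cd79a (827, 2560, 2102 and 2298 cells in the order of groups) the 12-month Xbp1 ratio was 0.45, and that of Calr 1.18. This kept 827 of 2450 cells of the 12-month bleomycin library but 2560 of 2570 of the 12-month PBS library. Depth differs between these libraries and bears on which cells lack a count. The part of plasma cells in the Xbp1 ratio was therefore not tested. With a minimum of 2% Sftpc the Xbp1 ratio was 0.70, and with none 0.67, both past 1.5-fold. This gave 6 genes in place of 5, beside 18.9% and 19.4% of all counted genes. After thinning cells to 3000 or 2000 counts the Xbp1 ratio was 0.58 and 0.56, and those of Calr were 1.17 and 1.26.

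Atf4, the factor translated when eIF2 alpha is phosphorylated, had 60.2 CPM (57.5 to 62.9) after bleomycin and 62.0 CPM (57.8 to 66.4) after PBS at 12 months, and 64.4 CPM (61.0 to 68.0) and 86.1 CPM (80.7 to 91.8) at 3 months. The 3-month PBS library was high, and the other 3 lay close together. Log2 ratios were -0.04 (-0.16 to 0.08) at 12 months and -0.42 (-0.54 to -0.30) at 3 months. Ddit3 (CHOP), the factor tied to death under lasting ER stress, was low throughout, with 14.3 CPM (454 counts) after bleomycin and 11.7 CPM (156 counts) after PBS at 12 months, and 15.2 CPM (316 counts) and 19.3 CPM (210 counts) at 3 months. Its log2 ratios were 0.28 (0.01 to 0.55) and -0.35 (-0.60 to -0.09), on opposite sides of 0 at the 2 ages. Ddit3, Hsp90b1 and Pdia6 share 68, 415 and 50 exon bases with genes of the opposite strand that are also in the files (Mars, 1810014B01Rik and Atp6v1c2). Whether counting used strand is not given in the sources used here, and without strand such reads cannot be told apart.

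The bleomycin response of these genes was set against age directly, as the 12-month log2 ratio minus the 3-month log2 ratio. The difference was above 0 for all 10 genes, where its median over 5039 counted genes was 0.09. The share of those genes with a difference above 0 was not counted. Sdf2l1, at 0.74 (0.49 to 0.99), and Hspa5, at 0.63 (0.54 to 0.71), passed 1.5-fold, 2 of 9 counted genes beside 7.92% of all, and 0 were past it in the other direction beside 4.07% of all. The others ran from 0.16 for Hsp90b1 and 0.17 for Dnajb9, whose interval included 0 (-0.03 to 0.37), over 0.26 for Pdia6, 0.34 for Pdia4, 0.35 for Calr and 0.37 for Atf4, to 0.53 for Xbp1 and 0.62 for Ddit3, which was below the level that counts. Both calls depended on the processing. The Hspa5 difference was 0.53 when the 20 most abundant genes were left out of the scaling, 0.55 with median-of-ratios scaling, 0.57 in cells with at least 10% Sftpc and 0.58 after thinning to 3000 counts, and that of Sdf2l1 was 0.56 in cells with at least 10% Sftpc, all short of 1.5-fold. Intervals of these differences are large-sample counting intervals from the 4 libraries.

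Part of that difference lay between the PBS libraries. After PBS, all 10 genes had a ratio of 12 to 3 months below 0, from -0.11 for Calr to -0.50 for Dnajb9 among counted genes, with Sdf2l1 at -0.44, Atf4 at -0.47, Hspa5 at -0.38 and uncounted Ddit3 at -0.71. Their median was -0.25 against -0.11 for all 4526 counted genes, of which 3176 were below 0. None of the 9 counted genes reached 1.5-fold: 0 were higher beside 2.08% of all and 0 lower beside 3.73%. After bleomycin, 6 of 9 were above 0, beside 2318 of all 4586 counted genes. These 6 were Sdf2l1 (0.30), Xbp1 (0.30), Hspa5 (0.24), Calr (0.24), Pdia6 (0.11) and Pdia4 (0.09). Hsp90b1 (-0.06), Atf4 (-0.10) and Dnajb9 (-0.33) were below 0. The median of the 9 was 0.11 beside 0.00 for all genes. Again 0 of 9 were at least 1.5-fold higher beside 4.6% of all, and 0 lower beside 2.83%. These age ratios and the bleomycin ratios come from the same 4 libraries and are not separate evidence.

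The 3-month PBS library also stood apart in cytosolic heat-shock genes, chaperones induced outside the ER and during tissue dissociation. Hspa1a was at 3.84 CPM in the 12-month PBS library against 176 CPM in the 3-month PBS library, and Hspa1b at 3.31 against 206 CPM; the split between these near-identical neighbours is uncertain. Of 15 such genes, 14 were at least 1.5-fold lower at 12 than at 3 months after PBS, beside 3.73% of all counted genes. Cells without a count of Hspa1a or Hspa1b numbered 2135, 2480, 2088 and 913 in the order of groups. In them the median of the counted ER stress genes was 0.76 for bleomycin at 12 months, 0.28 for bleomycin at 3 months and -0.21 for age after PBS. The medians of all counted genes were 0.10, -0.03 and -0.12. The Hspa5 response differed between ages by 0.53, short of 1.5-fold. This set kept 913 of 2308 cells of the 3-month PBS library but 2480 of 2570 of the 12-month PBS library. Depth bears on which cells lack a count.

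Other genes of the pathway were described from 6 lists of 106 genes in all. At 12 months 25 of the 73 counted genes were at least 1.5-fold higher after bleomycin and 6 lower (median log2 ratio 0.39), beside 18.5% and 10.6% of all counted genes (median 0.10). At 3 months 8 of 67 were higher and 7 lower (median 0.21), near the shares of 8.99% and 11.1% over all counted genes (median -0.01). The counts of each list below stand against these same shares.

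Other folding genes had 6 of 16 higher and 1 lower at 12 months (median 0.22), and 2 of 17 higher and 0 lower at 3 months (median 0.22). Dnajb11, the BiP co-chaperone ERdj3, stood at 92.1 CPM after bleomycin and 40.03 CPM after PBS at 12 months, a log2 ratio of 1.20 (1.07 to 1.34), and at 0.89 (0.75 to 1.03) at 3 months. The ratios of P4hb, the classic protein disulfide isomerase, were 0.80 and 0.55, and that of Txndc5, another member of that family, was 0.80 at 12 months. Manf, a secreted ER stress protein, had 259 CPM after bleomycin and 149 CPM after PBS at 12 months, and 211 and 192 CPM at 3 months. The prolyl isomerase Fkbp11 differed from all of these, with 24.2 CPM after bleomycin and 42.4 CPM after PBS at 12 months (-0.81, -0.97 to -0.65), but 32.5 and 17.6 CPM at 3 months (0.88, 0.65 to 1.12).

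In ER translocation, 6 of 16 genes were higher and 0 lower at 12 months (median 0.49), and 1 of 16 higher at 3 months (median 0.26). The translocon-associated subunits Ssr2 (1.14, 1.07 to 1.20) and Ssr4 (0.68, 0.61 to 0.74), the signal recognition particle receptor subunit Srprb (0.81, 0.65 to 0.97) and the signal peptidase subunit Sec11a (0.61, 0.50 to 0.72) passed at 12 months. The signal peptidase subunit Sec11c passed at 3 months (0.65, 0.55 to 0.75).

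The degradation list, by contrast, held 1 higher and 1 lower gene at each age, of 13 counted at 12 months (median 0.36) and 12 at 3 months (median 0.11). Edem2, which helps trim mannose from misfolded glycoproteins, was the higher one (1.001, 0.83 to 1.18, at 12 months and 0.85, 0.64 to 1.06, at 3 months). Herpud1, a membrane protein of the degradation complex and a common marker of ER stress, was the lower one. It stood at 137 CPM after bleomycin and 303 CPM after PBS at 12 months, and at 155 and 317 CPM at 3 months, giving log2 ratios of -1.15 (-1.21 to -1.09) and -1.03 (-1.10 to -0.96). Its direction was thus opposite to that of Calr and Pdia6 in the same cells.

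Targets of the integrated stress response, which ATF4 drives, were mixed: 6 of 17 were higher and 3 lower at 12 months (median 0.35), beside 18.5% and 10.6% of all genes, and 1 of 13 higher and 4 lower at 3 months (median 0.12), beside 8.99% and 11.1%. Atf3, a stress-induced factor that also belongs to the immediate early response, was higher at both ages (1.67, 1.54 to 1.80, and 1.14, 0.96 to 1.32), as Ddit4, an inhibitor of mTORC1, was at 12 months (0.98, 0.80 to 1.16). Cth, of cysteine synthesis, was lower at both (-1.79, -2.06 to -1.52, and -0.75, -1.004 to -0.49), Vldlr, a lipoprotein receptor, lower at 12 months (-0.78), and the transcription factor Cebpb (-1.07) and the cytokine Gdf15 (-1.11) lower at 3 months. Cth, Vldlr and Gdf15 were counted only through their levels after PBS. Cth had 21.6 CPM after PBS and 6.25 CPM after bleomycin at 12 months, and 21.8 and 13.0 CPM at 3 months. Vldlr had 28.2 and 16.4 CPM at 12 months, and Gdf15 23.9 and 11.1 CPM at 3 months. The summed level of 15 immediate early genes was 4290.01, 3306, 3014 and 2881 CPM in the order of groups.

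Among sensors and regulators, 4 of 7 genes were higher at 12 months and 0 lower (median 0.62), and 2 of 6 higher and 1 lower at 3 months (median 0.04). The 12-month genes were Eif2ak2, the interferon-inducible kinase PKR (1.59, 1.30 to 1.92), Eif2s1, encoding eIF2 alpha (0.98), Creb3 (0.67) and the ER membrane protein gene Tmbim6 (0.62). Eif2ak2 was counted only through its level after bleomycin (23.0 CPM, against 7.60 CPM after PBS). At 3 months Creb3 (0.87) and Eif2s1 (0.68) passed again, and Creb3l2 was lower (-0.86). Creb3l2 was counted only through its level after PBS (20.6 CPM, against 11.3 CPM after bleomycin). Among death genes, 2 of 4 were higher and 1 lower at 12 months, and 1 of 3 higher and 1 lower at 3 months. Bax, an outer membrane pore protein of mitochondria, had ratios of 1.57 (1.48 to 1.67) and 0.82 (0.71 to 0.94), and its relative Bak1 2.22 (1.90 to 2.58) at 12 months, while the BH3-only gene Bcl2l11 was lower at both (-0.99 and -1.19). Bak1 was counted only through its level after bleomycin (27.9 CPM, against 5.94 CPM after PBS). Bcl2l11 was counted only through PBS, with 24.4 against 12.2 CPM at 12 months and 31.1 against 13.6 CPM at 3 months.

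**Figure D3:**
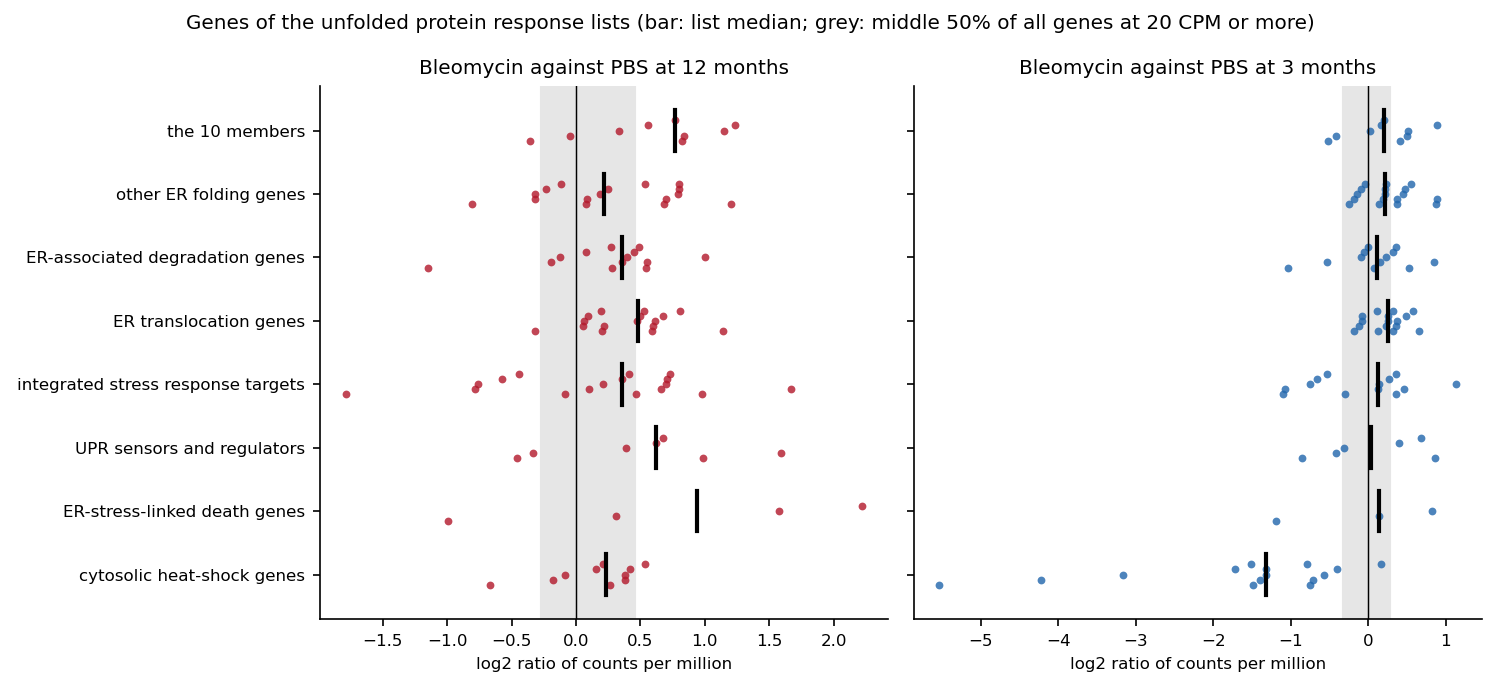
Log2 ratio of bleomycin against PBS (horizontal axis, each panel with its own range) for every counted gene of each list at 12 months (left) and 3 months (right), with a bar at the list median and grey for the middle 50% of all counted genes. The 10 ER stress genes have their median at 0.77 at 12 months and 0.20 at 3 months, and the cytosolic heat-shock list lies at 0.24 and -1.33.

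The spread over cells was read after thinning each cell to 3000 counts, which left 2450, 2328, 2244 and 1952 cells in the order of groups (0, 242, 55 and 356 shallower cells were left out). The 7 ER-resident genes together gave a mean of 4.84 counts per cell after bleomycin and 2.91 after PBS at 12 months, and 4.51 and 3.43 at 3 months. Medians were 4 and 3 counts at each age, bleomycin before PBS. The 99th percentiles were 15 and 9 counts at 12 months and 14 and 11 at 3 months. The variance divided by the mean, which is 1 for counting noise alone, was 2.10 and 1.52 at 12 months and 1.94 and 1.83 at 3 months. At the same relative spread this value is larger where the mean is larger. As the means differ, it does not rank the libraries by how uneven their cells are. The top 5% of cells held 13.7% and 14.3% of these counts at 12 months and 13.6% and 14.8% at 3 months, a similar share in all 4 libraries. Cells are not replicates, and these values describe each library.

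**Figure D4:**
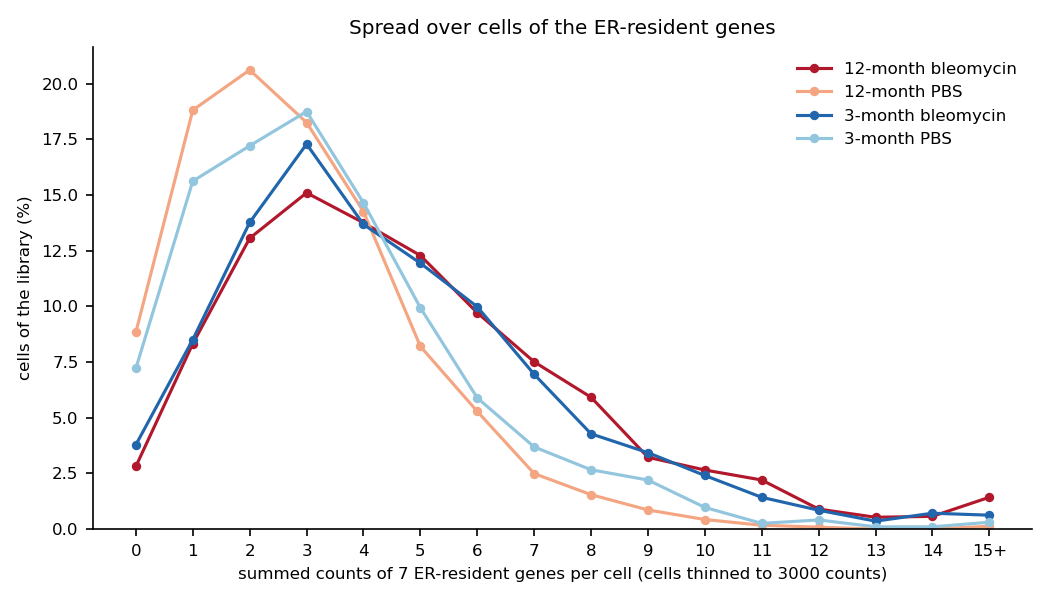
Share of cells (vertical axis, percent of each library) by the summed thinned counts of the 7 ER-resident genes per cell (horizontal axis, 15 standing for 15 or more). Both bleomycin curves are shifted to higher counts relative to the PBS curves, with means of 4.84 and 4.51 against 2.91 and 3.43 at 12 and 3 months.

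Within the cells used, levels were followed over 4 bands of the Sftpc share (5 to 10%, 10 to 15%, 15 to 20%, and 20% or more), as CPM of the counts that are not Sftpc. At 12 months the bleomycin ratio of most of the genes was larger the less Sftpc the cells held. For Calr it was 1.72 (1.54 to 1.91), 1.41 (1.31 to 1.52), 1.10 (1.01 to 1.19) and 0.73 (0.56 to 0.92) from the lowest to the highest band. For Pdia6 it was 1.33, 0.93, 0.60 and 0.47, and for Hspa5 1.26, 0.85, 0.75 and 0.66. Sdf2l1 ran from 2.00 (1.48 to 2.62) over 1.16 and 1.03 to 0.59 (0.10 to 1.15), and Xbp1 from 0.75 over 0.69 and 0.50 to 0.27. The median over all 4701 counted genes also fell, from 0.16 over 0.14 and 0.10 to 0.04. Such a decline at every step was found in 7 of the 9 counted genes (Calr, Hspa5, Pdia6, Sdf2l1, Hsp90b1, Xbp1 and Atf4) beside 23.9% of all 4701, and also in Ddit3, while Pdia4 (0.55 to 1.06) and Dnajb9 (-0.46 to -0.22) kept no order. At 3 months it was found in 1 of the 9, Calr (1.05 to 0.84), beside 17.7% of all, and the ratios of Pdia6 (0.30 to 0.62) and Xbp1 (up to 0.33) were higher in each next band, as in 7.32% of all. The median over all counted genes fell at that age too, from 0.14 over 0.09 and 0.05 to -0.01.

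The levels of Calr behind these ratios ran in opposite directions over the bands. It had 668 CPM of non-Sftpc counts in the lowest band and 507 in the highest of the 12-month bleomycin library, and 202 in the lowest and 305 in the highest of the 12-month PBS library. Median counts per cell were 12630, 12719.5, 12630 and 11791 in the bands of the bleomycin library, but 3755.5, 4823, 5574 and 5425.5 in those of the PBS library, and the part of depth was not tested. The transitional marker Krt8 also differed over the bands, with 822, 523, 279 and 215 CPM in the 12-month bleomycin library against 137, 195, 163 and 171 CPM in the 12-month PBS library. At 3 months it had 571, 382, 251 and 189.5 CPM after bleomycin against 171, 231, 197 and 189 CPM after PBS. Its part in the trend was not tested. Cells under 5% Sftpc, which were not used above, had the highest Sdf2l1 (135 CPM, 125 to 146) and Xbp1 (227 CPM, 214 to 241) of the 12-month bleomycin library. Cells of that band had 64.5 (48.3 to 84.4) and 107 (85.9 to 132) CPM in the 12-month PBS library. Hsp90b1 (435 CPM), Pdia4 (116 CPM) and Ddit3 (28.9 CPM) of the 12-month bleomycin library were also highest under 5% Sftpc. The intervals of Hsp90b1 and Ddit3 overlapped those of the lowest used band. The 12-month bleomycin ratio was lower under 5% Sftpc than in the lowest used band for Calr, Hspa5, Pdia6, Sdf2l1 and Atf4. For Calr it was 0.96 against 1.72, and for Hspa5 0.53 against 1.26. It was higher there for Xbp1 (1.08 against 0.75), Pdia4, Hsp90b1, Dnajb9 and Ddit3. The 12-month bleomycin levels of Calr (550 CPM), Hspa5 (402 CPM) and Pdia6 (309 CPM) were also below those of the lowest used band. Cells other than AT2 cells can fall in the band under 5%, and their part was not tested.

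**Figure D5:**
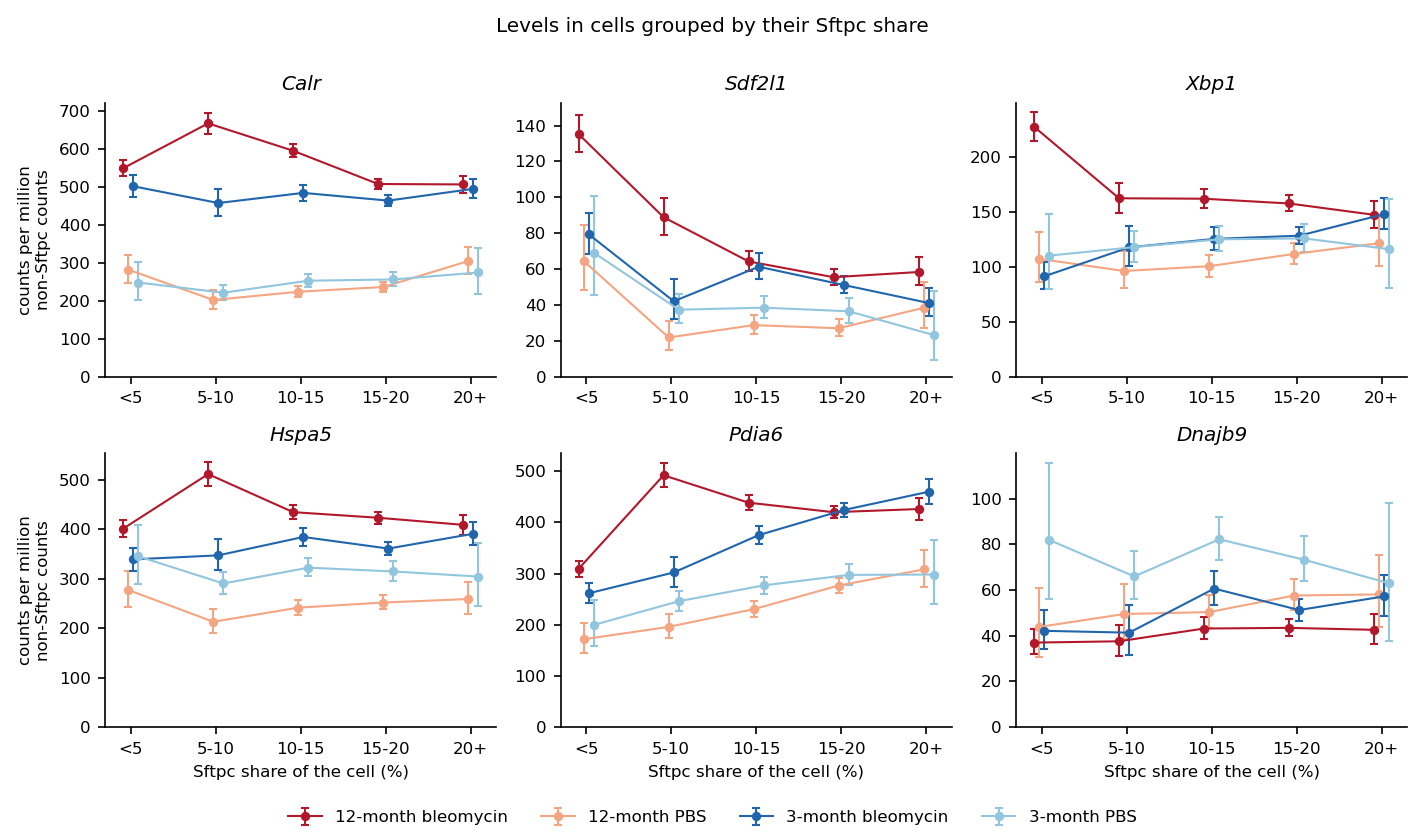
Level of 6 of the genes (vertical axis, CPM of the counts that are not Sftpc, starting at 0) in cells grouped by their Sftpc share (horizontal axis, percent), with bars for exact Poisson 95% intervals; cells under 5% were not used in the comparisons. In the 12-month bleomycin library Calr has 668 CPM at 5 to 10% Sftpc and 507 at 20% or more, while Dnajb9 is the lowest of the 4 libraries in each band from 5% on.

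Likeness between genes over cells was weak at this depth. Across 2377 genes with a mean of at least 0.1 thinned counts in every library, the genes with the highest median Pearson r with Hspa5 over the 4 libraries were Calr (0.15), Manf (0.14), Pdia6 (0.14), Hsp90b1 (0.10), Pdia3 (0.088), Sec61g (0.085), Sftpd (0.081), Cxcl15 (0.080), P4hb (0.079) and Lcn2 (0.079). The median over all 2377 genes was 0.0019. Each r is over 1952 to 2450 cells that share a library and its depth, and such values in sparse counts are a description only. Of these 10, 3 are among the ER stress genes and 4 more (Manf, Pdia3, Sec61g and P4hb) on the folding or translocation lists. The share of such genes among all 2377 was not counted. The other ranked ER stress genes stood lower: Pdia4 at rank 13 (0.077), Xbp1 at 22 (0.066), Dnajb9 at 96 (0.036) and Atf4 at 329 (0.019). Ddit3 and Sdf2l1 were too sparse to be ranked.

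Genes with and without a full ERSE overlapped in their responses. At 12 months the 4 with the motif ran from 0.33 (Hsp90b1, which holds a pair of them) to 1.23 (Calr), and the 6 without it from -0.36 (Dnajb9) to 1.15 (Sdf2l1). A match in a promoter does not show that a factor bound there in these cells.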

How the data were processed

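The deposited files hold UMI counts per gene and cell, 1 matrix per library, with no normalization. The authors used Cell Ranger, the mouse build mm10 and Seurat 3.2.2, per the submitters' processing notes; the annotation release, the cell filters and the use of strand in counting are not given in the sources used here. The 4 libraries were grouped by their labels, with 1 library per group. Cells were kept as described in the report, and doublets were left in except in an alternative, which dropped the barcodes with the highest Scrublet scores (scanpy 1.11.5) at 0.8% per 1000 barcodes. Counts were summed per library and divided by its total to give CPM. Log2 ratios used a prior of 0.5 counts, with exact binomial 95% intervals. Intervals and the floor of 3 counts cover counting error only. No test was made. Genes named beyond the 10 were, per comparison, up to 4 of each pathway list with the largest log2 ratio among genes at 20 CPM or more whose interval left out 0, up to 3 of each context list, and the 10 genes most like Hspa5 by median r; Jchain, Ptprc and Krt8 were named after their values were seen. The genes and lists were chosen with earlier results of these data known. Promoters are from RefSeq, GRCm38.p6. Python 3.11.15, numpy 2.4.6, scipy 1.17.1, pandas 2.3.3 and matplotlib 3.10.9 were used. Only the ratios, their intervals and the 1.5-fold calls were tested on simulated data, which were Poisson counts with counting error alone. Alternatives covered scaling, minimum level, fold, cell filters, thinning and doublets.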

Additional observations from a re-analysis of the deposited data

Results flagged for a closer look

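Differences between groups in opposite directions, with both counting intervals leaving out 0, were found for 6 genes, none of them tested, since each group is 1 library. Only the ER stress genes were examined for this, and the share of all counted genes with such differences was not counted. The bleomycin ratio of Ddit3 was above 0 at 12 months and below 0 at 3 months, a difference of 0.62 on the log2 scale at under 20 CPM. The ratio of 12 to 3 months was above 0 after bleomycin and below 0 after PBS for Hspa5 (a difference of 0.63), Pdia6 (0.26), Calr (0.35), Xbp1 (0.53) and Sdf2l1 (0.74). Pdia4 had the same signs (0.09 after bleomycin and -0.25 after PBS), but its interval after bleomycin included 0. These differences equal those of the bleomycin ratios between ages, as both come from the same 4 libraries.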

How the results depend on the processing

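No paired analysis was possible because the labels give 1 library per group and no replicates. Of 560 log2 ratios recomputed (40 ratios under 14 alternatives), 550 kept their sign; the 10 that did not were of Atf4, Ddit3 and Xbp1. The number of the 10 genes at least 1.5-fold higher after bleomycin at 12 months (5) was 6, with Xbp1, at an Sftpc minimum of 2% or none. The shares of all counted genes there were 18.9% and 19.4%. It was 3 with a minimum of 100 CPM, which 5 of the 10 genes reach, beside 20.7% of all, and 2 at 2-fold, beside 6.91%. At 3 months that number (1) was 3 when the 20 most abundant genes were left out of the scaling, beside 12% of all, and 0 at 2-fold, beside 2.71%. The number lower (0) was 1, Dnajb9, after thinning to 3000 or 2000 counts, beside 11% and 12.5% of all. After PBS the number lower at 12 than at 3 months (0) was 1, Ddit3, with that scaling, after thinning to 3000 counts, and with no minimum beyond 10 counts. The shares of all counted genes were 3.03%, 4.86% and 9.86% in that order. After bleomycin the number higher at 12 months (0) was 1, Sdf2l1, beside 7.41% of all, in cells without an immune marker count, which left 112 cells of the 12-month bleomycin library. The causes were not tested. Median-of-ratios scaling put the median of all genes at 0.00 for bleomycin at 12 months, against 0.10. The set of cells without Jchain, Mzb1 or Cd79a was chosen after seeing the data. Ddit3, with 156 to 454 counts per library, is limited by depth.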
